A study of Mus musculus with 7 samples.

Results

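The MYC, MAX and MXD network was examined in CD8+ T cells as 10 genes, *Myc*, *Mycn*, *Max*, *Mxd1*, *Mxi1*, *Mxd3*, *Mxd4*, *Mnt*, *Mga*, and *Mlx*. They were taken by gene symbol from the 55367 genes of the deposited count table. The rule uses symbols and no measured value, but the network was picked with earlier results of these data known. Gene expression was measured by 3′ mRNA sequencing with molecular identifiers in splenic T cells sorted by FACS and kept for 48 hours with small extracellular vesicles (sEV) at 100 µg/mL. LME-sEVs came from the leukemia microenvironment, the spleens of leukemic Eμ-*TCL1* mice, in which the Eμ enhancer drives the *TCL1* oncogene in B cells, and HCME-sEVs came from spleens of healthy mice. There were 3 LME-sEV libraries and 4 HCME-sEV libraries, and the comparison asks how leukemic vesicles change the RNA of these T cells. All 7 libraries were from healthy mice of the strain Foxp3 YFP/cre, so the recipient cells carried this reporter and Cre allele in both groups and the vesicle source was the labelled difference. The group sizes are those of the labels, and the study's own account of this experiment gives them the other way round. The labels give no age and the study's methods name young adult mice unless otherwise stated. The study's methods describe the sEV amount as the physiologic one of the respective spleen, and the study recovered more sEVs from leukemic spleens. The labels give 100 µg/mL in both groups, so whether dose differed along with source cannot be told from the sources used here. The methods culture the cells on anti-CD3 with IL2 and anti-CD28. Whether each library was a separate animal or culture is not stated in the sources used here, so p-values measure the spread between these samples, which may be technical.

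MYC proteins activate transcription only as dimers with MAX, and the dimer binds the E-box CACGTG and related sites in promoters of genes for ribosome assembly, nucleotide synthesis, and cell growth. The MXD proteins (encoded by *Mxd1*, *Mxi1*, *Mxd3*, and *Mxd4*) and MNT also dimerize with MAX, occupy the same sites, and recruit the SIN3 corepressor with histone deacetylases, whereas MGA brings MAX into a Polycomb complex. MLX is a MAX-like protein that takes MXD1, MXD4, and MNT, as well as the glucose-responsive factors of the Mondo family, as partners. In T cells, MYC is induced by antigen receptor and IL2 signals and is needed for the growth that precedes division, and several MXD genes are highest in cells that have stopped dividing.

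The E-box was looked for in the promoters of the network genes themselves. RefSeq promoters (GRCm38.p6, from 250 bases before the annotated start to 50 bases after it) were matched for 9 of the 10 genes, and *Myc* was not in the promoter table. CACGTG, which reads the same on both strands, was in 4 of the 9 genes (44.4%, exact 95% interval 13.7% to 78.8%), namely *Max*, *Mxd4*, *Mlx*, and *Mnt*, against 7.15% of all 32851 promoters of the same length in the table. Among all genes of the table, 8.09% had at least 1 promoter with it. GC content was 55.0% to 76.7% in the promoters of the 9 genes, while its median was 52.7% over all promoters and 58.0% over those with the motif. The 4 windows around the motif are shown 5′ to 3′ on the gene's strand, with the motif in capitals and 20 bases on each side.
*Max* window: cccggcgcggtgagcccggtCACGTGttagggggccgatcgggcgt
*Mxd4* window: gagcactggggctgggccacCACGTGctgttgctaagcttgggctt
*Mlx* window: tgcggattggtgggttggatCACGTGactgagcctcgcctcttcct
*Mnt* window: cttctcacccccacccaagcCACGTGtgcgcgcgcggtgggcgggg
The motif of *Max* lay at chr12:76962246-76962251, that of *Mxd4* at chr5:34187924-34187929, that of *Mlx* at chr11:101087250-101087255, and that of *Mnt* at chr11:74830801-74830806. The first base of the motif was 3 bases before the start in *Max*, 40 in *Mlx*, 123 in *Mnt*, and 219 in *Mxd4*. In the last 150 bases of the window, 22.2% of the 9 genes and 4.35% of all promoters had it. The whole promoters of *Max* and *Mxd4*, the genes that moved furthest down and up, are given with the motif in capitals.
*Max* promoter, chr12:76962199-76962498, minus strand: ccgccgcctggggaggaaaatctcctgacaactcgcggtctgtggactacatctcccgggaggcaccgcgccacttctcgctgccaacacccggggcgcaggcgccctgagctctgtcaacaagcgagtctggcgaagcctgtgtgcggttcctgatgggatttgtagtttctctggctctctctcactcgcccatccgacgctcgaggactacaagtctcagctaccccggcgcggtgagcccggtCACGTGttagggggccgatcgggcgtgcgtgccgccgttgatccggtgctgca
*Mxd4* promoter, chr5:34187661-34187960, minus strand: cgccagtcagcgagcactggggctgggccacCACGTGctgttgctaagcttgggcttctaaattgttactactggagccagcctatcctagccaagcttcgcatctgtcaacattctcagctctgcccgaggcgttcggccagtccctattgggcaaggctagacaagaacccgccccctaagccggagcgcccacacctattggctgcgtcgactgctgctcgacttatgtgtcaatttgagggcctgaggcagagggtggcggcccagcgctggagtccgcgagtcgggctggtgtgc
A match is a run of letters and says nothing of binding in these cells. No binding data were used.

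The libraries held 3689831 to 5030522 counts, so that 3 counts, the limit that a count of 0 allows, corresponded to 0.58 to 0.804 CPM. CPM are a gene's counts scaled to a library of fixed size, with TMM factors (trimmed mean of M-values) that adjust the library sizes. Because each molecule gives a single tag near its 3′ end, transcript length does not enter these levels, but isoforms of a gene cannot be told apart. The CD8 T-cell markers were abundant, with a summed level of 2220 to 2420 CPM with HCME-sEVs and 2490 to 2800 CPM with LME-sEVs, and *Cd4* averaged 0.116 and 0.343 CPM. Of these markers, 2 of 8 tested were higher (*Cd3e* and *Cd3g*, against 3.75% of all tested genes), and DESeq2 called 1. HCME-sEV library 1 stood furthest from its group, its counts giving a chi-square over degrees of freedom of 5.76 to 8.54 against the other 3 HCME-sEV libraries, where those 3 gave 2.4 to 4.9 among themselves, so the results below are also given without it where they rest on it.

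Some markers of other cells differed between the groups. The summed level of 9 basophil, mast-cell and eosinophil genes was 5.52 to 35.1 CPM with HCME-sEVs and 30 to 46.1 CPM with LME-sEVs (3 of 6 tested higher, against 3.75% of all tested genes), and that of 7 erythroid and platelet genes was 71.6 to 175 and 150 to 196 CPM (3 of 6 tested higher). DESeq2 called 1 gene of the first list and 0 of the second, as did the fit without LME-sEV library 2. With limma-voom, 3 were called in each. Among the first of these lists, *Cpa3* had a log2 fold change of -0.26 (FDR = 0.721, edgeR). The sum of 10 B-cell genes was 245 to 288 and 327 to 355 CPM (2 of 5 tested higher, *Ighm* and *Cd74*, and 1 called by DESeq2). Most of this sum was *Ighm*, at 219 to 262 and 298 to 324 CPM. Of the 5 tested, 4 log2 fold changes were above 0 and 1 below. Untested *Pax5* averaged 0.86 and 0.228 CPM and *Cd79a* 0.12 and 0 CPM. The sum of 10 myeloid genes was 3.19 to 5.28 and 6.57 to 8.85 CPM, with *Fcgr1* at 0 in all libraries, and that of 3 NK genes was 0.464 to 2.16 and 0.387 to 0.536 CPM. In bulk RNA, fewer cells of a type and less RNA per cell cannot be told apart, and the part of these markers in the results below was not tested.

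Of the 10 network genes, 9 passed the filter of a mean of 5 counts per library. With LME-sEVs, *Mxd4* and *Mxi1* rose and *Max* fell past a false discovery rate (FDR, the Benjamini-Hochberg adjusted p of edgeR's quasi-likelihood test) of 0.05, and *Myc* itself showed no detectable difference. These were 3 of 9, against 8.96% of the 12623 genes tested. The 2 higher genes compare with 3.75% of all tested genes called higher, and the 1 lower gene with 5.21% called lower. *Mxd4* was also beyond a log2 fold change of 1, as were 1.28% of all tested genes that passed both limits. The 2 groups did not overlap for 3 of the 9 (*Mxd4*, *Max*, and *Mxd1*), against 20.3% of all tested genes. The median log2 fold change of the 9 was 0.15, beside 0.0096 over all tested genes, with 6 above 0 and 3 below.

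**Figure D1:**
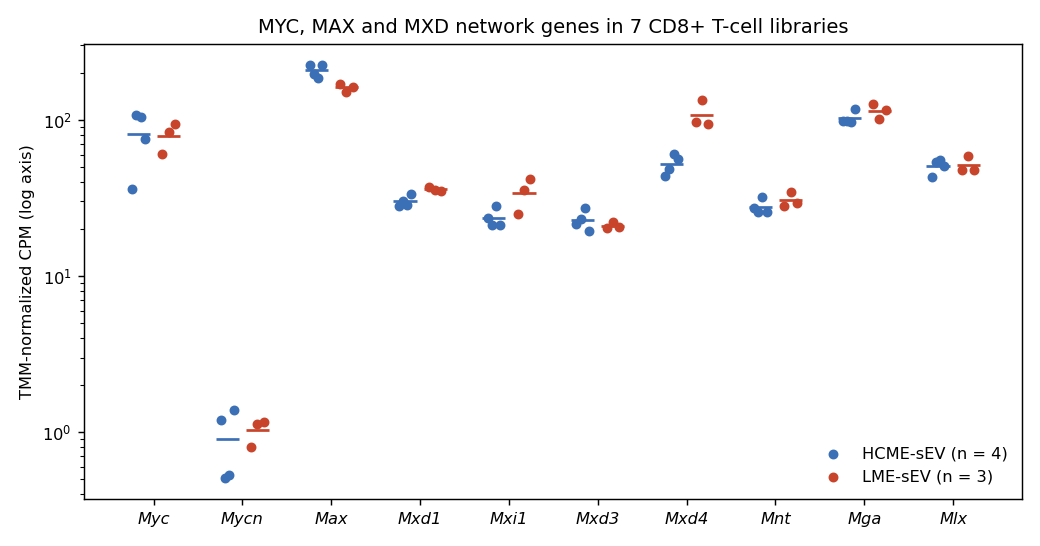
Level of each of the 10 network genes in TMM-normalized CPM (vertical log axis) in every library, with HCME-sEV (n = 4) and LME-sEV (n = 3) as points and the group mean as a line. *Mxd4* points of the LME-sEV libraries (93.7 to 134 CPM) lie above all HCME-sEV points (43.7 to 60.3 CPM), *Max* points lie below, and *Myc* points overlap.

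With HCME-sEVs the order of the mean levels was *Max* (208 ± 21.4 CPM, SD, n = 4), *Mga* (103 ± 9.51), *Myc* (80.7 ± 33.0), *Mxd4* (52.1 ± 7.48), *Mlx* (50.9 ± 5.5), *Mxd1* (30.1 ± 2.43), *Mnt* (27.6 ± 2.97), *Mxi1* (23.4 ± 3.18), *Mxd3* (22.8 ± 3.31), and *Mycn* (0.907 ± 0.456). *Max* stood apart from every other gene, at a level above 91.8% of the tested genes over all 7 libraries. Among neighbours, the libraries of *Myc* spread across those of both *Mga* and *Mxd4*, and *Mxd4* with *Mlx*, *Mxd1* with *Mnt*, *Mnt* with *Mxi1*, and *Mxi1* with *Mxd3* overlapped, whereas *Mlx* lay above *Mxd1* and *Mxd3* above *Mycn* in every library. With LME-sEVs, *Mxd4* (108 ± 22.3 CPM, SD, n = 3) had moved to the level of *Mga* (115 ± 11.9), and its libraries overlapped with those of *Mga*. The mean of *Myc* was 79.1 ± 17 CPM, but in LME-sEV library 3 *Mxd4* (93.7 CPM) and *Myc* (93.5 CPM) were nearly level.

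*Myc* (chr15:61985391-61990374, plus strand) encodes the activator that gives the network its name. It was at 36.0, 107, 105, and 75.6 CPM in HCME-sEV libraries 1 to 4 and at 60.3, 83.3, and 93.5 CPM in LME-sEV libraries 1 to 3. The groups overlapped, and the spread with HCME-sEVs, a coefficient of variation of 40.9% against 21.5% with LME-sEVs, came mostly from the low library 1. The log2 fold change was -0.01 (SE 0.223, FDR = 0.981, edgeR; exact permutation p = 0.943, two-sided), with a 95% interval of -0.48 to 0.45. In folds this interval runs from 0.717 to 1.37, so these libraries do not exclude a change of *Myc* RNA within these bounds. Without HCME-sEV library 1 the value was -0.26 (FDR = 0.256, edgeR), and it changed sign under other choices.

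*Mycn* (chr12:12936093-12941914, minus strand), a related activator used mainly in progenitor cells, had 5, 2, 2, and 6 counts with HCME-sEVs and 3, 5, and 6 counts with LME-sEVs. With a mean of 4.14 counts it stayed under the filter, and its levels were close to the 3-count limit in every library. *Mycl*, another member of the MYC family that was listed with the wider network, was at 0 counts in 6 of 7 libraries.

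*Max* (chr12:76937269-76962201, minus strand) encodes the obligate partner of MYC, and the protein is also a partner of the repressors. It was at 226, 196, 185, and 226 CPM with HCME-sEVs and at 171, 152, and 163 CPM with LME-sEVs, and every LME-sEV library lay under every HCME-sEV library. The log2 fold change was -0.36 (SE 0.0878, 95% interval -0.55 to -0.18, FDR = 0.0127, edgeR), which is a level of 0.777 times that with HCME-sEVs (0.684 to 0.882). The exact permutation p was 0.0571 (two-sided), and 0.0286 is the smallest value that 3 against 4 libraries allow. The call held in 5 of the 7 fits that left out a library, including the fit without HCME-sEV library 1 (-0.32, FDR = 0.0208, edgeR), and was lost without LME-sEV library 2 (FDR = 0.0929) or 3 (FDR = 0.0588).

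*Mxd4* (chr5:34173883-34187720, minus strand), a MAX-binding repressor, changed most among the network genes. It was at 43.7, 48.2, 60.3, and 55.9 CPM with HCME-sEVs, from 182 to 241 counts per library. With LME-sEVs it was at 96.8, 134, and 93.7 CPM, from 361 to 597 counts. The lowest LME-sEV library was well above the highest HCME-sEV library. The log2 fold change was 1.06 (SE 0.125, 95% interval 0.79 to 1.32, FDR = 5.66e-05, edgeR), a 2.08-fold higher level (1.73 to 2.49), and *Mxd4* ranked 10 of all tested genes by p. The exact permutation p was 0.0286, the smallest possible. It stayed past the FDR in all 7 fits that left out a library, with log2 fold changes of 0.87 (without LME-sEV library 2) to 1.15, and was under 1 also without HCME-sEV library 1 (0.98).

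*Mxi1* (chr19:53310518-53375810, plus strand) encodes MXI1, also called MXD2. It was at 23.5, 21.2, 27.9, and 21.1 CPM with HCME-sEVs and at 24.9, 35.6, and 41.9 CPM with LME-sEVs. The groups overlapped, since LME-sEV library 1 lay under HCME-sEV library 3. The log2 fold change was 0.56 (SE 0.154, 95% interval 0.24 to 0.89, FDR = 0.0255, edgeR; exact permutation p = 0.0857, two-sided). Only 3 of the 7 fits that left out a library kept the call, which was lost without HCME-sEV library 2 (FDR = 0.0791, edgeR) or 4 (FDR = 0.0800) and without LME-sEV library 2 (FDR = 0.114) or 3 (FDR = 0.223). The direction held throughout, from 0.38 to 0.74.

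*Mxd1* (chr6:86647042-86669161, minus strand), the repressor first described as MAD1, was at 28.1, 30.3, 28.4, and 33.4 CPM with HCME-sEVs and at 37.3, 35.8, and 35.2 CPM with LME-sEVs. The groups did not overlap, but the log2 fold change of 0.26 (SE 0.112, 95% interval 0.03 to 0.49) did not pass the test over all genes (FDR = 0.168, edgeR; exact permutation p = 0.0571, two-sided). *Mxd3* (chr13:55325168-55329823, minus strand), the family member tied to S phase, was at 21.6, 23.2, 27.1, and 19.3 CPM against 20.4, 22.2, and 20.5 CPM, with overlapping groups and a log2 fold change of -0.11 (SE 0.139, FDR = 0.696, edgeR). Its exons overlap those of *Prelid1* on the opposite strand over 105 bases, *Prelid1* had 912 to 1286 counts per library, and the strand setting of the counting is not given in the sources used here, so the level of *Mxd3* is uncertain. *Mxd4* and *Mxi1* overlap opposite-strand genes too, but those had 0 counts in every library.

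Summed over the 4 MXD genes, the level was 117, 123, 144, and 130 CPM with HCME-sEVs and 179, 227, and 191 CPM with LME-sEVs, or 128 ± 11.5 (SD, n = 4) and 199 ± 25.0 CPM (SD, n = 3). The groups of this sum did not overlap. Without *Mxd4* the sum was 73.2, 74.8, 83.5, and 73.8 CPM against 82.6, 93.6, and 97.6 CPM, and the groups overlapped. *Mxd4* made up 37.4% to 43.1% of the family with HCME-sEVs and 49.0% to 58.8% with LME-sEVs. The ratio of *Mxd4* to *Mxd1* was 1.74 ± 0.262 and 3.0 ± 0.636.

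**Figure D2:**
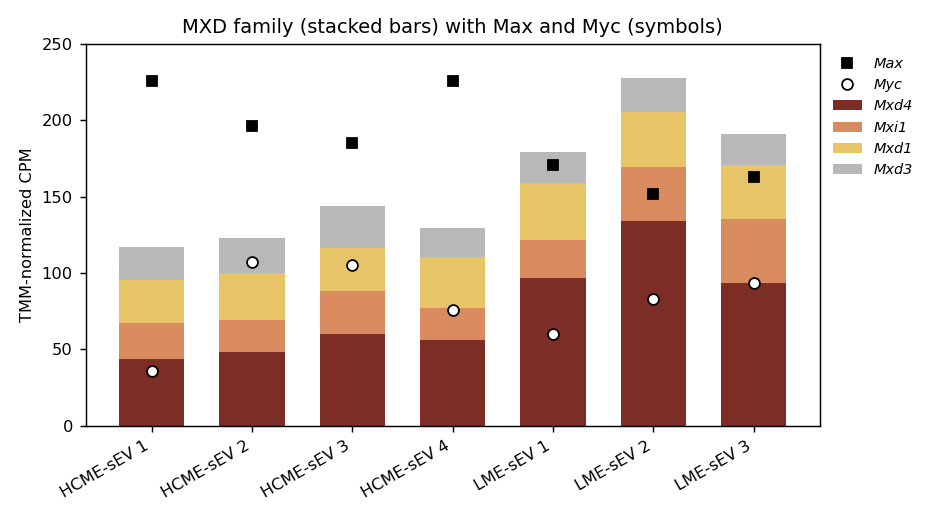
TMM-normalized CPM (vertical axis) of the 4 MXD genes as stacked bars in each of the 7 libraries, with *Max* as squares and *Myc* as circles. The squares stand above the bars in the 4 HCME-sEV libraries and below the top of the bars in the 3 LME-sEV libraries.

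*Max* exceeded the summed MXD genes in every HCME-sEV library, with ratios of 1.94, 1.59, 1.28, and 1.75, and lay under the sum in every LME-sEV library, with ratios of 0.952, 0.669, and 0.854. The mean ratio was 1.64 ± 0.275 and 0.825 ± 0.144. *Max* made up 29.9% to 41.2% of the RNA of the 10 genes with HCME-sEVs and 23.1% to 27.9% with LME-sEVs, and the MXD genes 20.4% to 23.2% and 29.3% to 34.5%. The ratio of the MXD sum to *Myc* did not separate the groups (3.25, 1.15, 1.37, and 1.71 against 2.97, 2.73, and 2.05), and HCME-sEV library 1, with its low *Myc*, had the highest of the 7. The summed level of all 10 genes overlapped, at 549 to 626 and 613 to 659 CPM. The ratio of *Max* to the MXD sum and the shares of both rest largely on *Max* and *Mxd4*, whose groups already did not overlap. They are therefore not separate evidence. The sum also holds *Mxd3*, whose level is uncertain. These are RNA levels, and amounts of protein were not used here.

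*Mnt* (chr11:74830920-74845725, plus strand), the broadly expressed repressor, was at 27.1, 25.5, 31.9, and 25.8 CPM with HCME-sEVs and at 27.9, 34.3, and 29.4 CPM with LME-sEVs. *Mga* (chr2:119897228-119969581, plus strand), the scaffold of the Polycomb complex PRC1.6, was at 98.2, 98, 97.6, and 117 CPM and at 126, 102, and 116 CPM. The groups overlapped for both. Neither passed the test, with log2 fold changes of 0.15 (SE 0.125, 95% interval -0.11 to 0.41, FDR = 0.520) and 0.16 (SE 0.094, 95% interval -0.04 to 0.35, FDR = 0.345, edgeR).

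*Mlx* (chr11:101087277-101092207, plus strand) was at 43.2, 54.0, 55.6, and 50.6 CPM with HCME-sEVs and at 47.7, 58.7, and 47.5 CPM with LME-sEVs. The groups overlapped, and the log2 fold change was 0.02 (SE 0.112, 95% interval -0.22 to 0.25, FDR = 0.958, edgeR). Its 3′ end overlaps *Psmc3ip* on the opposite strand over 385 bases, a gene with 28 to 55 counts per library, so part of these reads is uncertain. Its partner *Mlxip*, encoding MondoA, had a log2 fold change of 0.27 (SE 0.144, FDR = 0.268, edgeR), and *Txnip*, a well-known MondoA target that restrains glucose uptake, of 0.21 (SE 0.163, FDR = 0.486). *Mlxipl*, encoding the related ChREBP, had a mean of 0.714 counts and *Arrdc4*, another MondoA target, of 4.71 counts, and neither was tested.

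**Figure D3:**
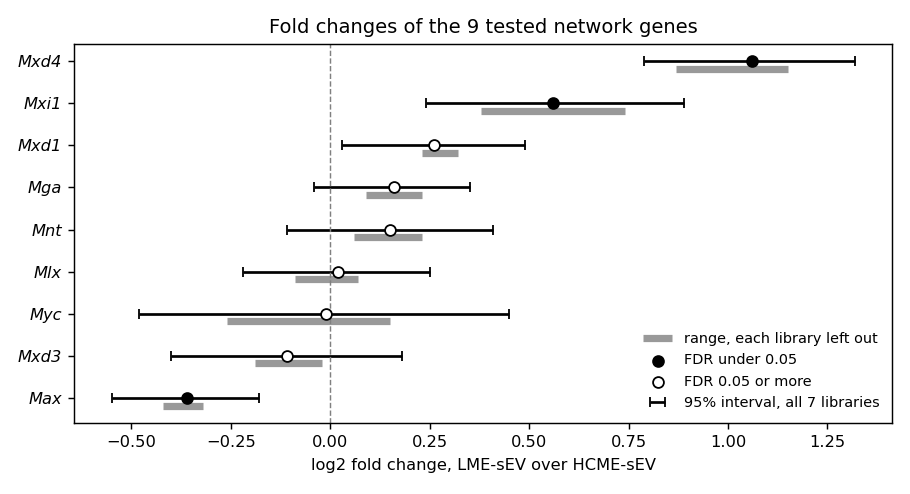
Log2 fold change (horizontal axis, LME-sEV over HCME-sEV) of the 9 tested network genes with the 95% interval over all 7 libraries as a line, filled points for an FDR under 0.05 and gray bars for the range when each library was left out in turn. The bar of *Mxd4* runs from 0.87 to 1.15 and that of *Max* from -0.42 to -0.32, and the bar of *Myc* spans 0.

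The genes whose log2 CPM followed *Mxd4* most closely over the 7 libraries, among 7849 genes whose mean count reached 50, were *Calcoco1* (r = 0.996), *Selenop* (0.993), *Dcaf17* (0.993), *Bmyc* (0.990), and *Myb* (0.990). *Bmyc* encodes a short MYC-related protein, and its log2 fold change was 0.81 (FDR = 6.84e-04, edgeR). *Myb*, a transcription factor of progenitor and memory-forming T cells, had one of 0.65 (FDR = 6.39e-04). The values were 0.72 for *Calcoco1* (FDR = 0.00256), 0.65 for *Selenop* (FDR = 0.00156), and 0.29 for *Dcaf17* (FDR = 0.063, edgeR). Genes picked for following *Mxd4* tend to share its group difference, so these fold changes are not separate evidence. *Entr1* (r = 0.987), *Mtbp* (0.983), *Setdb1* (0.981), *Ppp4c* (0.978), and *Gramd4* (0.975) followed *Myc*, with log2 fold changes from -0.07 to 0.07. All 5 of these were lowest in HCME-sEV library 1, as was *Myc*. These correlations over 7 libraries are descriptions, and genes share library, group, and depth in them. Against *Myc*, *Max* had an r of -0.444 and *Mxd4* of 0.234.

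A list of 58 MYC target genes, for ribosome assembly, nucleolar function, polyamine and nucleotide synthesis, mitochondrial chaperones, the cell cycle, DNA replication, and metabolism, was compared next. It was used with earlier results on it in these data known, so its count is not independent evidence of its direction. Of 57 tested, 32 fell (56.1%, against 5.21% of all tested genes) and 1 rose, 55 of the 57 log2 fold changes were below 0, and their median was -0.35, beside 0.0096 over all tested genes. The groups did not overlap for 38 of the 57 (66.7%, against 20.3% of all tested genes), and the summed level was 12200 to 14800 CPM with HCME-sEVs and 10100 to 11700 CPM with LME-sEVs.

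**Figure D4:**
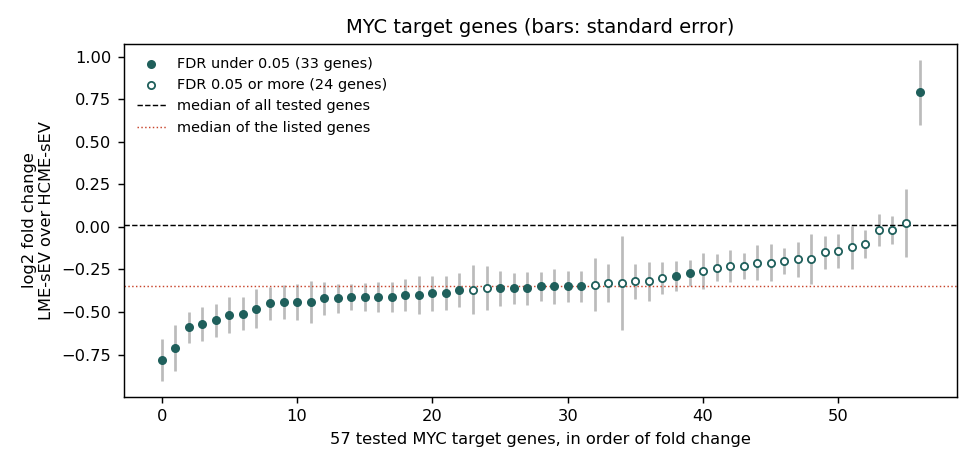
Log2 fold change (vertical axis, LME-sEV over HCME-sEV) of the 57 tested MYC target genes in rank order along the horizontal axis, with the standard error as a bar and filled points for an FDR under 0.05. All but 2 points lie below 0, and the dotted line at the list's median of -0.35 lies under the dashed line of all tested genes.

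*Rrp9*, encoding a U3 small nucleolar ribonucleoprotein subunit, fell the most. It was at 56.4, 56.6, 50.5, and 42.5 CPM with HCME-sEVs and at 32.4, 31.6, and 26.3 CPM with LME-sEVs, with a log2 fold change of -0.78 (SE 0.124, FDR = 6.4e-04, edgeR). *Polr1b*, a core subunit of RNA polymerase I, fell from 23.1, 25.8, 23.4, and 24.1 CPM to 14.2, 14.8, and 15.1 CPM (log2 fold change -0.71, SE 0.134, FDR = 0.00247, edgeR). The groups did not overlap for either gene, and both calls held in all 7 fits that left out a library. *Sord*, encoding the sorbitol dehydrogenase of the polyol pathway and the only listed gene that rose, was at 8.4, 9.34, 8.77, and 11.8 CPM and at 16.9, 12.5, and 20.3 CPM (log2 fold change 0.79, SE 0.19, FDR = 0.0125, edgeR). Its groups did not overlap.

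The count of called targets depended on single libraries. Without HCME-sEV library 1 it was 25 in both directions, without LME-sEV library 2 it was 12, and without LME-sEV library 3 it was 11. Calls over all tested genes fell in the same fits, from 8.96% with all libraries to 7.6%, 3.09%, and 3.66%, in the same order. CACGTG was in the promoters of 15 of 53 target genes matched (28.3%, exact 95% interval 16.8% to 42.3%, against 8.09% of all genes in the table). The 15 tested targets with the motif had a median log2 fold change of -0.35, with 8 called, and the 37 without had one of -0.36, with 22 called.

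The mean log2 CPM of the 57 targets, relative to the mean of the 7 libraries, was 0.23, 0.16, 0.03, and 0.12 with HCME-sEVs and -0.1, -0.24, and -0.2 with LME-sEVs. The groups did not overlap. HCME-sEV library 1 had the lowest *Myc* of all 7 libraries and the highest target level, and LME-sEV library 3 had *Myc* at 93.5 CPM with a target level of -0.2. The libraries did not fall in the same order by *Myc* RNA and by the targets. HCME-sEV library 1 was also the one furthest from its group. Without it the log2 fold change of *Myc* was -0.26 (FDR = 0.256, edgeR). A link of the target levels to *Myc* RNA was not tested.

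**Figure D5:**
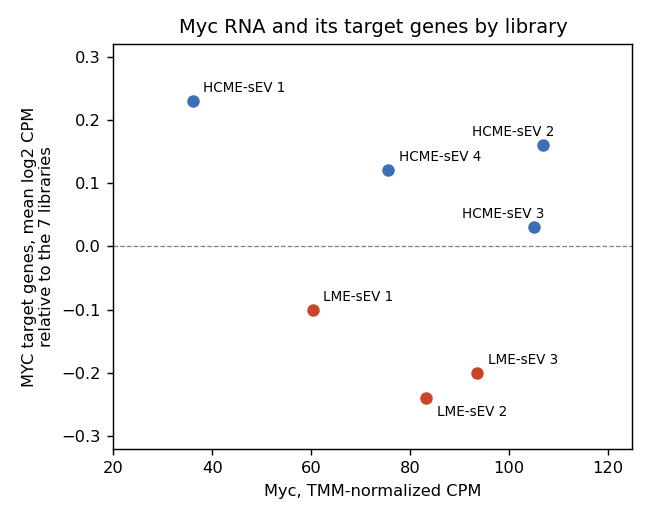
Mean log2 CPM of the MYC target genes relative to the 7 libraries (vertical axis) against *Myc* in TMM-normalized CPM (horizontal axis), 1 point per library. The 4 HCME-sEV libraries lie from 0.03 to 0.23 and the 3 LME-sEV libraries from -0.24 to -0.1, at *Myc* levels that overlap.

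The corepressors through which MXD proteins and MNT act did not pass the test. At an unadjusted p under 0.05 stood 22.7% of all tested genes. For 18 listed genes of the SIN3 and histone deacetylase complexes, 17 were tested and 0 called in edgeR (3 at an unadjusted p under 0.05, 0 called by DESeq2 and 0 by limma-voom), with log2 fold changes from -0.31 to 0.28 and a median of -0.01. Of 13 PRC1.6 genes, the complex that holds MGA, 0 were called (5 at an unadjusted p under 0.05, 0 by DESeq2 or limma-voom). Their log2 fold changes, 11 below 0 and 2 above, ran from -0.38 to 0.46 with a median of -0.12. Their summed level was 1600 to 1710 CPM with HCME-sEVs and 1530 to 1540 CPM with LME-sEVs. With the replicate number as a block, 2 genes of the complex, *Cbx3* and *Tfdp1*, were called. Of 15 germline genes that this complex is known to silence, 6 (*Mael*, *Stk31*, *Tex101*, *Slc25a31*, *Hormad1*, and *Meioc*) were at 0 in all libraries and 2 could be tested, of which 0 were called (0 at an unadjusted p under 0.05 and 0 by DESeq2).

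Among 15 MYC coactivators, 1 fell (6.67%, near the 5.21% of all tested genes called lower), *Ruvbl1*, an ATPase of chromatin remodeling complexes, from 88.3 ± 8.19 CPM (SD of 4 libraries) to 70.8 ± 7.14 CPM (SD of 3 libraries). Its log2 fold change was -0.32 (SE 0.0988, FDR = 0.048, edgeR), and 0 of the 15 were called by DESeq2 or by limma-voom. Of 21 genes that control MYC stability, 4 fell (19.0%, against 5.21%) and 0 rose. *Usp36*, the nucleolar deubiquitinase that stabilizes MYC, went from 81.0 ± 7.5 to 60.8 ± 11 CPM (log2 fold change -0.41, SE 0.114, FDR = 0.0272, edgeR). *Pim1*, a kinase that phosphorylates MYC, had a log2 fold change of -0.34 (FDR = 0.0142, edgeR) and *Set*, an inhibitor of the phosphatase that destabilizes MYC, of -0.28 (FDR = 0.0302). *Fbxw7*, the ubiquitin ligase adaptor that marks MYC for degradation, had a log2 fold change of -0.08 (FDR = 0.665, edgeR). *Usp36* kept its call in 4 of the 7 fits that left out a library and *Ruvbl1* in 1.

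Among 9 further genes of the wider network, 6 were tested and 2 fell (33.3%, against 5.21% of all tested genes), where DESeq2 called 0 and limma-voom 1, *Zbtb17*. *Zbtb17*, encoding the MIZ1 factor through which MYC represses genes, was at 24.7, 23.0, 19.1, and 20.7 CPM with HCME-sEVs and at 15.8, 14.6, and 15.7 CPM with LME-sEVs (log2 fold change -0.51, SE 0.143, FDR = 0.0285, edgeR). *Mycbp*, encoding a small MYC-binding protein, was at 47.3, 49.0, 53.7, and 39.9 CPM and at 34.9, 36.5, and 38.7 CPM (log2 fold change -0.37, SE 0.113, FDR = 0.0481, edgeR). The groups of both did not overlap. The call of *Zbtb17* held in 2 of the 7 fits that left out a library and that of *Mycbp* in 1.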

How the data were processed

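Per the labels and the study's methods, RNA was made into libraries with the QuantSeq 3′ forward kit, and the authors trimmed reads (cutadapt 2.10), aligned them to GRCm38 (STAR 2.5.3a), collapsed molecular identifiers (UMI-tools 1.0.0), and counted them per gene (Subread 2.0.0, featureCounts). The annotation release and the strand setting are not given in the sources used here. The deposited values were raw counts for 7 libraries, grouped by the labels.

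Genes averaging 5 counts or more per library were tested, LME-sEV against HCME-sEV with no covariate, by edgeR 4.0.16 (R 4.3.3, quasi-likelihood test, TMM factors, prior count 2, Benjamini-Hochberg adjustment, FDR 0.05), and the standard error was the log2 fold change over the root of F. DESeq2 1.42.0 and limma 3.58.1 (voom) were alternatives, as were other scalings, filters, a replicate block, and each library left out. The exact permutation test (Python 3.11.15) used the difference of mean log2 CPM, and exact intervals of shares came from scipy 1.17.1. The script was checked on simulated data. Coordinates are from GENCODE vM21 (GRCm38). Near-identical 3′ ends were searched for with blast 2.17.0.

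The network genes and all lists were chosen with earlier results of these data known. The MYC target list was written by hand after collections of MYC targets. Named genes were every network gene and, in each list, at most the 2 highest and 2 lowest called genes that averaged 20 counts or more in the higher group. Named for likeness were 5 genes each for *Myc* and for the network gene with the lowest FDR. *Mycl*, *Mlxip*, *Mlxipl*, *Txnip*, *Arrdc4*, *Fbxw7*, *Pim1*, *Set*, *Cbx3*, *Tfdp1*, and marker genes not called were named outside this rule, after their values were seen. The E-box was not set against fold changes over all genes, since 73.3% of tested genes had a promoter in the table. CPM intervals and floors cover counting error only. Some genes of the lists are counted in them but not reported here by name.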

Additional observations from a re-analysis of the deposited data

Results flagged for a closer look

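In 4 HCME-sEV libraries, a value was singled out when its gap to the nearest other library was a large share of the group's range (Dixon's test at the 95% level). Of 40 results tested, 3 stood out, where chance gives about 2. *Mga* was higher in HCME-sEV library 4 (117 CPM) than in the others (97.6 to 98.2 CPM), with a gap of 0.967 of the range. The summed MXD genes without *Mxd4* were higher in HCME-sEV library 3 (83.5 CPM) than in the others (73.2 to 74.8 CPM), with a gap of 0.851 of the range. *Prg2*, an eosinophil granule gene among the markers of other cells, had 0 CPM only in library 1 of this group and 0.464 to 0.532 CPM in the other 3, with a gap of 0.873 of the range, and those levels lie under the 3-count limit of each library.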

How the results depend on the processing

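*Mxd4* kept its direction and call under all 17 alternatives, and *Max* and *Mxi1* in the 10 that did not leave out a library. *Myc* was 0.0046 with upper-quartile factors, 0.028 with library size only, and 0.09 with limma-voom, and lay between -0.26 and 0.15 when single libraries were dropped, as *Mlx* lay between -0.093 and 0.073. In those fits, 1 to 3 network genes were called (1 without LME-sEV library 2 or 3) and 0 to 1 also passed a log2 fold change of 1. MYC targets called lower ranged from 11 (without LME-sEV library 2 or 3) to 35, and higher from 0 (without LME-sEV library 3) to 1. The other lists had 7 calls in all, 4 with DESeq2, 11 with the replicate block, and 1 to 6 with each library left out (1 without LME-sEV library 2, 2 without HCME-sEV library 2, LME-sEV library 1, or LME-sEV library 3). The cause of these differences was not tested, and the fits that left out a library also had fewer libraries. Over all genes, 1131 were called, 850 with DESeq2, and 391 without LME-sEV library 2, 458 without LME-sEV library 3, and 723 without HCME-sEV library 2. Deviations of same-numbered libraries correlated at 0.273, 0.0417, and 0.165, so numbers were not taken as pairs, and the replicate block called the same 3 network genes (Max -0.32, Mxi1 0.49, Mxd4 1.08) and 1454 genes in all.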
